A study of Mus musculus with 4 samples.

Results

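The genes described here encode the proteins that join epithelial cells to each other: 20 genes of tight junctions, 4 of adherens junctions, 12 of desmosomes, and Epcam, an epithelial adhesion molecule. They were taken by gene symbol, and all 37 were on the array, with 47 of the 36009 named probes and as 37 of 27746 genes. The cells were bronchial epithelial cells isolated from mouse lungs in an allergic asthma model driven by ovalbumin (OVA), an egg protein used as allergen. Each of 4 groups was profiled with 1 single-colour array: challenged cells labelled Pla2g3-/-, challenged wild-type (Pla2g3+/+) cells, control cells labelled Pla2g3-/-, and control wild-type cells. Pla2g3 encodes a secreted phospholipase A2. Per the labels, mice were sensitised with 10 µg OVA and 1.3 mg alum on days 0 and 14, breathed a 1% OVA aerosol for 30 min on each of days 26, 27 and 28, and gave lungs 3 h after antigen challenge. The labels do not say what control mice were given, so a challenge effect can include sensitisation. RNA was pooled from 4 samples for each array, and whether those were single mice is not stated. With 1 array per group no difference between 2 arrays has a replicate check, and none is given a p-value.

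Tight junctions seal the space between neighbouring epithelial cells near their apical surface. Claudins form the strands of this seal, and which claudins a cell makes sets whether the strand blocks ions and water or lets them pass through pores. Adherens junctions, built on E-cadherin and the catenins, couple the actin belts of neighbouring cells, and desmosomes, built on desmogleins, desmocollins, plakoglobin, plakophilins and plakins, couple their keratin filaments. In the airway these junctions keep inhaled allergens out of the tissue, and a leaky airway epithelium is a known feature of asthma.

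Cldn2, Cldn15 and Cldn1 had the largest positive challenge effects of the 13 claudin genes among the 37, and their promoters are shown for that reason. Each run is the 250 bases before the annotated start of the gene, 5′ to 3′ on the gene's strand, from RefSeq on the GRCm38.p6 build, with matches to the motifs searched in capitals. They lie at chrX:139800558-139800807 (plus strand), chr5:136967619-136967868 (plus strand) and chr16:26371840-26372089 (minus strand).
Cldn2: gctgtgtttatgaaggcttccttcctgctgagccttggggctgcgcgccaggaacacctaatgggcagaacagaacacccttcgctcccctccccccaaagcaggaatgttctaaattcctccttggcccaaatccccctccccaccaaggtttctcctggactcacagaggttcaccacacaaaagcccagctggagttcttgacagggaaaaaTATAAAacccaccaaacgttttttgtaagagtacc
Cldn15: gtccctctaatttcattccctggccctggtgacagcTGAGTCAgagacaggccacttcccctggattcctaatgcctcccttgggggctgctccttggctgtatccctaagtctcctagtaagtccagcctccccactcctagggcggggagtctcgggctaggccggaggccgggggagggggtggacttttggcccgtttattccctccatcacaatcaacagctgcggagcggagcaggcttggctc
Cldn1: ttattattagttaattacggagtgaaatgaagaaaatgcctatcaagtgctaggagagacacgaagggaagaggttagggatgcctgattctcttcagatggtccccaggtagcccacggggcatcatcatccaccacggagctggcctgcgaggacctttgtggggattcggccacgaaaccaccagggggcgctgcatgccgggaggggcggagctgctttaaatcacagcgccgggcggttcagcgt
The Cldn2 window held TATAAA, the core of a TATA box, 35 to 30 bases before the start. The Cldn15 window held TGAGTCA, the site type bound by AP-1 factors, 214 to 208 bases before the start. The Cldn1 window held none of the 4 motifs. Of the 37 genes, 21 had a promoter in the table, with 31 windows in all, and a gene counted when any of its windows matched. A STAT-type motif (TTC, any 4 bases, then GAA) was in 2 of these 21 (Cldn12 and Ocln) and in 6.76% of the 27025 genes in the table. The AP-1 motif (TGANTCA) was in 3 (Cldn4, Cldn15 and F11r), against 7.82% of genes. The E-box type bound by Snail repressors (CAGGTG) was in 7, against 19.4%, and TATAAA was in 4, against 14.3%. Counted by window, the 4 motifs were in 5.85%, 6.75%, 17.2% and 12.4% of 32851 windows, in the same order. Both strands were searched, and a base could count towards several motifs. A match describes letters in this window and does not show binding.

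On each array 78.7% to 81.5% of the probes read well above background. Values are intensities divided by the array's 75th percentile (1808 to 1986 units) and multiplied by the geometric mean of the 4 percentiles, called scaled intensity below. Effects are log2 differences between arrays on that scale, where 1 is a 2-fold difference. Over the junction genes, the error that the scanner software gives for a difference was typically 0.20 (median), and it covers spots only, not mice, pools or labelling. The gene named in the labels went against them: Pla2g3 read 3989 in challenged cells labelled Pla2g3-/- and 267 in challenged wild-type cells, and 2095 in control cells labelled Pla2g3-/- and 229 in control wild-type cells. The labels do not give the deleted part, a probe outside it checks nothing, and all directions between genotypes are given by the labels as they stand. RNA of other cells also differed between the arrays. All 6 developing T cell markers (among them Rag1, Rag2 and Dntt) were above background on each array, and their summed signal, in units of the array's 75th percentile, was 1.16 and 0.44 on the challenged arrays labelled Pla2g3-/- and wild type, and 19.1 and 0.49 on the control arrays labelled Pla2g3-/- and wild type. The 5 neutrophil markers summed to 87.1 and 62.6 on these challenged arrays, against 45.6 and 58.0 on the control arrays. After challenge 4 of these 5 were at least 2-fold higher in cells labelled Pla2g3-/- and in wild type, with medians of 2.81 and 1.67. Over all genes 3.88% and 1.79% were. Csf3r, bright on every array, had challenge effects of −0.19 and −0.17. The 5 club cell markers of the secretory airway epithelium summed to 537 and 622 against 635 and 608, and the 6 ciliated cell markers to 45.0 and 60.2 against 42.1 and 55.6, all of them above background on every array. Of the 6 ciliated markers, Tmem212 differed most between cells labelled Pla2g3-/- and wild type, by −1.58 under challenge and −1.02 without. Rsph1 differed least, by −0.03 and −0.06, and the medians of the 6 were −0.19 and −0.43. In a bulk sample of this kind, fewer cells of a type and less RNA per cell cannot be told apart. The part of these other cells in the results below was not tested.

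Most junction genes were near level across the 4 arrays, and a small group of claudins and desmosomal genes was not. Of the 37 genes, 33 were well above background on all 4 arrays, and 4 (Cldn1, Cldn6, Cldn18 and Dsg3) on 1 to 3. Among those 33, the range between the highest and the lowest array was under 0.5 in 22 (66.7%) and under 1 in 30 (90.9%), with a median of 0.34. Over all 21576 genes above background on all 4 arrays these shares were 63.7% and 88.1%, with a median range of 0.38, so the junction genes as a group were about as level as other genes. Epcam, whose protein joins epithelial cells directly, had the narrowest range of all members, 0.07, with scaled intensities of 4550 and 4632 in challenged cells labelled Pla2g3-/- and wild type, and 4566 and 4784 in control cells labelled Pla2g3-/- and wild type.

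**Figure D1:**
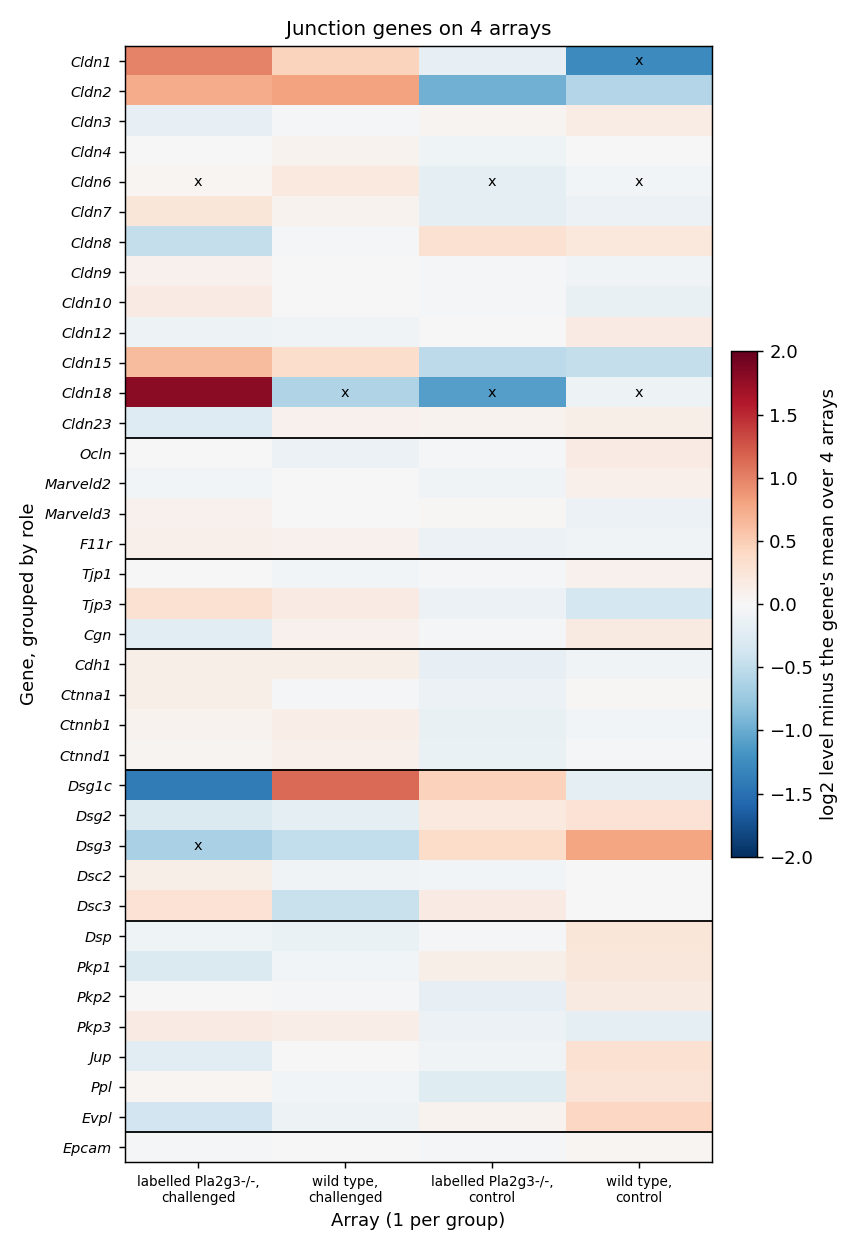
Level of each of the 37 junction genes (rows, grouped by role) on each array (columns), as the log2 level minus the gene's mean over the 4 arrays, with a cross where a probe was not well above background. Most rows are pale, with ranges under 0.5 in 22 of the 33 genes measured on all arrays, while Cldn1, Cldn2, Cldn15, Dsg1c and Dsg3 show the strongest colours among those measured on at least 3.

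After challenge, 3 junction genes were at least 2-fold higher and 2 at least 2-fold lower of 36 measured in cells labelled Pla2g3-/-, and 3 were higher and 1 lower of 36 in wild-type cells. Under normexp, another background correction that compresses dim probes, 1 was higher and 0 lower in cells labelled Pla2g3-/-, and 0 were either in wild type. The share past 2-fold over all genes was 3.88% on the higher and 3.46% on the lower side in cells labelled Pla2g3-/-, and 1.79% and 1.7% in wild type. The median effect of the members was 0.09 in cells labelled Pla2g3-/- and −0.05 in wild type, beside −0.06 and −0.03 over all genes. Of the 35 members measured for both effects, 2 (Cldn1 and Cldn2) were at least 2-fold higher in both, 1 (Dsg3) lower in both, and 1 (Dsg1c) 2-fold different in opposite directions. Over 22611 genes measured for both, those shares were 0.778%, 0.367% and 0.416%. A difference past 2 scanner errors was seen in 10 of 36 members in cells labelled Pla2g3-/- and in 8 of 36 in wild type, beside 23.3% and 13.6% of all genes.

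**Figure D2:**
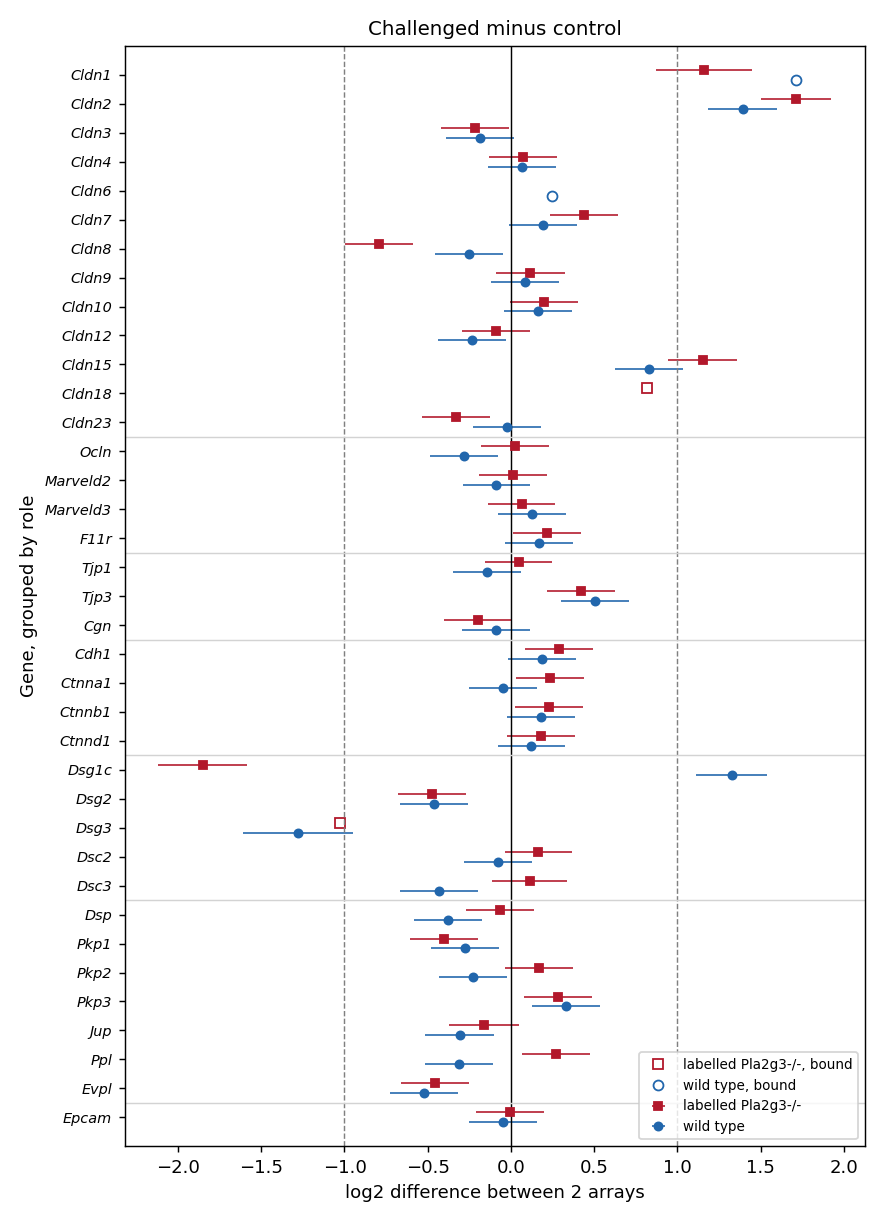
Challenge effect of each junction gene in cells labelled Pla2g3-/- (squares) and wild-type cells (circles), as the log2 difference between the challenged and the control array with bars of 1 scanner error, and open symbols for bounds. Dashed lines mark a 2-fold difference. Cldn2, Cldn15 and Cldn1 lie to the right and Dsg3 to the left in both genotypes, and Dsg1c lies on opposite sides.

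Among the claudins, Cldn2 was higher after challenge in both genotypes and with both of its probes. Claudin-2 forms a pore for small cations and water and is a mark of leaky epithelia. Its scaled intensity was 259 and 270.4 in challenged cells labelled Pla2g3-/- and wild type, and 79.0 and 103 in control cells labelled Pla2g3-/- and wild type. Both challenged arrays were thus above both control arrays. The effect was 1.71 (3.28-fold higher, scanner error 0.21) in cells labelled Pla2g3-/- and 1.39 (2.62-fold, 0.21) in wild type. A second Cldn2 probe, dim at 10.4 to 32.6 intensity units, gave 1.41 and 1.40. The measuring probe lies on chromosome X from 136345244 to 136345303 (mm9).

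Claudin-15 is another cation pore among the claudins, best studied in the intestine. Cldn15 had scaled intensities of 768 and 635 in challenged cells labelled Pla2g3-/- and wild type, and 346 and 357 in control cells labelled Pla2g3-/- and wild type. Again both challenged values lay above both control values, which were close to each other. The effect was 1.15 (2.22-fold higher) in cells labelled Pla2g3-/- and 0.83 (1.78-fold) in wild type, with a scanner error of 0.20 each. Its probe lies on chromosome 5 from 137451465 to 137451524 (mm9).

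Claudin-1 seals the junction and is needed for the skin barrier. Cldn1 was dim here, at 46.6 and 32.1 in challenged cells labelled Pla2g3-/- and wild type, and 20.9 and 9.77 in control cells labelled Pla2g3-/- and wild type, the last value not well above background. It was 1.16 higher after challenge in cells labelled Pla2g3-/- (2.23-fold, scanner error 0.29) and at least 3.28-fold higher in wild type, a bound of 1.71. With normexp these effects were 0.24 and 0.41, and the probe lies on chromosome 16 from 26357372 to 26357431 (mm9).

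Cldn8 went the other way. Claudin-8 restricts the passage of cations. Its scaled intensity was 5495 and 7483 in challenged cells labelled Pla2g3-/- and wild type, and 9501 and 8895 in control cells labelled Pla2g3-/- and wild type. Both challenged values lay below both control values, and the effect was −0.79 (1.73-fold lower) in cells labelled Pla2g3-/- and −0.25 in wild type, with a scanner error of 0.20. Only the first of these is past 2 scanner errors. The Cldn8 probe lies on chromosome 16 from 88561135 to 88561194 (mm9).

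Claudin-7, a basolateral claudin that also binds the Epcam protein, read 60505 and 54243 for Cldn7 in challenged cells labelled Pla2g3-/- and wild type, and 44712 and 47558 in control cells labelled Pla2g3-/- and wild type. Its effect was 0.44 in cells labelled Pla2g3-/- and 0.19 in wild type. The sealing claudin gene Cldn3 read 64009 and 69316 in challenged cells and 74336 and 78878 in control cells, in the same order of genotypes, so both challenged arrays were lower, by 0.22 and 0.19 on the log2 scale. Cldn4, another sealing claudin gene, had effects of 0.07 in both genotypes. Cldn9, Cldn10, Cldn12 and Cldn23 lay between −0.33 and 0.20. Both Cldn18 and Cldn6 were mostly at background. Cldn18, whose protein seals the alveolar epithelium, was well above background only on the challenged array labelled Pla2g3-/-, at 16.1 against 3.01 in challenged wild-type cells, and Cldn6, a claudin of embryonic epithelia, only on the challenged wild-type array, at 15.3. The 5 alveolar type 2 cell markers, such as Sftpc, were above background on every array. Cldn18 had a bound of 0.81 (1.76-fold higher) after challenge in cells labelled Pla2g3-/-, with a scanner error of 1.47. Cldn6 had a bound of 0.25 in wild type, with a scanner error of 0.46. Both bounds are within 1 scanner error. Over the 13 claudins, 3 of 12 measured were at least 2-fold higher and none lower in cells labelled Pla2g3-/-, with a median of 0.16. Over all genes 3.88% were higher and 3.46% lower there. In wild type 2 of 12 were higher and none lower, with a median of 0.12, beside 1.79% and 1.7% of all genes. The dim Cldn1 was among those higher in both genotypes.

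**Figure D3:**
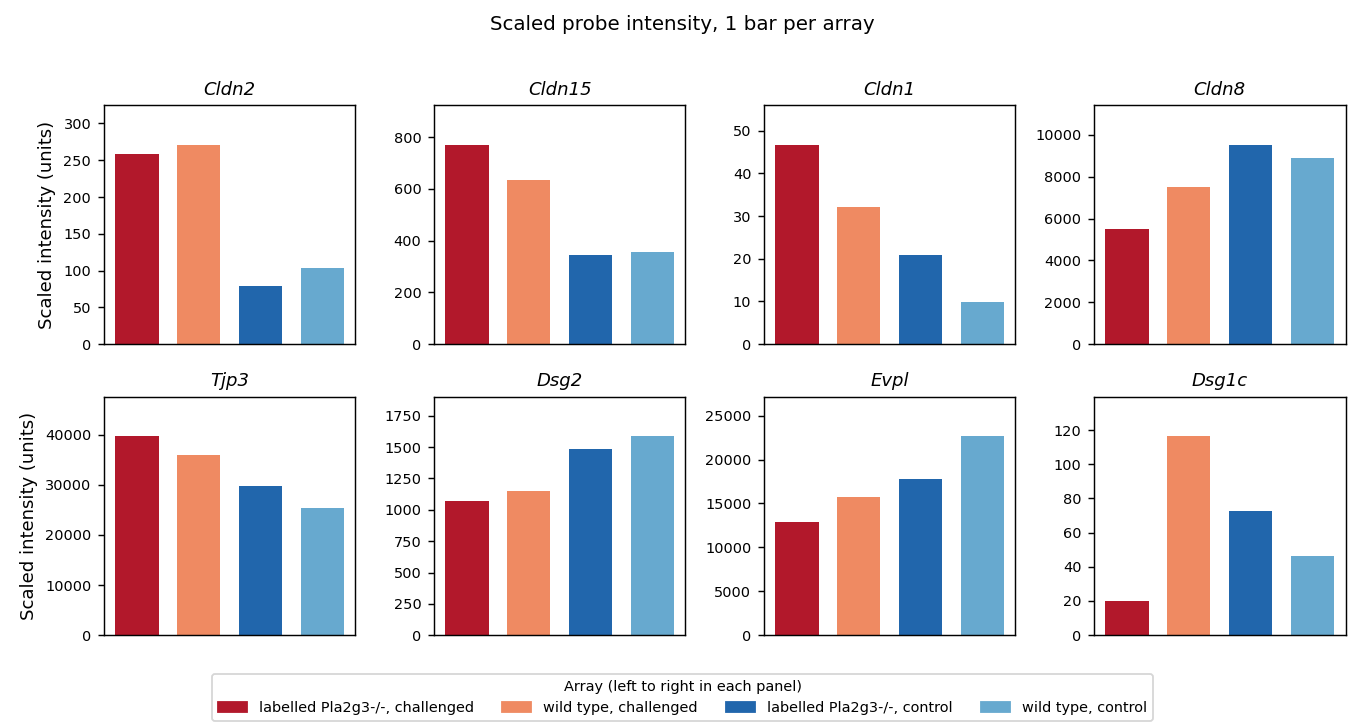
Scaled probe intensity of 8 junction genes, 1 bar per array, each panel from 0 on its own axis because different probes cannot be set against each other. For Cldn2, Cldn15, Cldn1 and Tjp3 both challenged bars stand above both control bars, for Cldn8, Dsg2 and Evpl below, and for Dsg1c the challenged bars are the lowest (20.2) and the highest (116).

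The other tight junction genes were nearer to level, apart from Tjp3. ZO-3, its product, is 1 of the scaffold proteins that tie claudins to actin. Tjp3 read 39675 and 35932 in challenged cells labelled Pla2g3-/- and wild type, and 29673 and 25339 in control cells labelled Pla2g3-/- and wild type. Both challenged values lay above both control values, with effects of 0.42 (1.34-fold) and 0.50 (1.42-fold), both past 2 scanner errors. Tjp1, which encodes the scaffold ZO-1, read 4155 and 4013 against 4027 and 4429 in the same order, with effects of 0.05 and −0.14. Cgn, which encodes the plaque protein cingulin, read 11637 and 14468 in challenged cells labelled Pla2g3-/- and wild type, and 13329 and 15394 in control cells labelled Pla2g3-/- and wild type, with effects of −0.20 and −0.09. Among the membrane proteins, F11r, the gene of junctional adhesion molecule A, was 0.22 and 0.17 higher after challenge. Occludin (Ocln), tricellulin (Marveld2) and Marveld3 had effects of 0.03, 0.01 and 0.06 in cells labelled Pla2g3-/- and of −0.28, −0.09 and 0.12 in wild type, and a second Ocln probe gave −0.16 and −0.37. None of these 7 genes other than the claudins was 2-fold different in either genotype.

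The 4 adherens junction genes were slightly higher or level after challenge. Cdh1, which encodes E-cadherin, read 20438 and 20449 in challenged cells labelled Pla2g3-/- and wild type, and 16762 and 17940 in control cells labelled Pla2g3-/- and wild type, with effects of 0.29 and 0.19. Ctnnb1 (beta-catenin) had effects of 0.23 and 0.18, Ctnnd1 (p120-catenin, which keeps E-cadherin at the membrane) 0.18 and 0.12, and Ctnna1 (alpha-catenin, the link to actin) 0.23 and −0.05, each with cells labelled Pla2g3-/- first. For Cdh1, Ctnnb1 and Ctnnd1 both challenged arrays lay above both control arrays. All of these effects were under 2 scanner errors, 0 of 4 genes were 2-fold different, and the medians were 0.23 in cells labelled Pla2g3-/- and 0.15 in wild type.

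Of the 12 desmosomal genes, 7 were below 0 in cells labelled Pla2g3-/- (58.3%, beside 57.6% of all genes), with a median of −0.11, and 10 were below 0 in wild type (83.3%, beside 54.3%), with a median of −0.31. At least 2-fold, 0 were higher and 2 lower in cells labelled Pla2g3-/-, beside 3.88% and 3.46% of all genes. In wild type 1 was higher and 1 lower, beside 1.79% and 1.7% of all genes. The 5 basal cell markers summed to 111 and 136 times the 75th percentile on the challenged arrays labelled Pla2g3-/- and wild type, and 140.1 and 135 on the control arrays, and their part in these values was not tested. Desmoglein-2 is the desmoglein of simple epithelia. Dsg2 read 1070 and 1150 in challenged cells labelled Pla2g3-/- and wild type, and 1486 and 1586 in control cells labelled Pla2g3-/- and wild type. The challenged values were both lower, with effects of −0.47 and −0.46, but a dimmer second probe gave 0.13 and −0.12. The direction in cells labelled Pla2g3-/- thus depends on the probe, while both probes were below 0 in wild type. With the mean of all Dsg2 probes the wild-type effect was 0.09. That mean includes another probe, at 2.24 to 3.72 intensity units and not well above background on any array. Desmoglein-3 is typical of basal and stratified epithelium. Dsg3 was dim, at 13.0 and 14.6 in challenged cells labelled Pla2g3-/- and wild type, and 26.5 and 35.3 in control cells labelled Pla2g3-/- and wild type, the first not well above background. It was at least 2.03-fold lower after challenge in cells labelled Pla2g3-/- and 2.43-fold lower in wild type (−1.28, scanner error 0.33), and −0.32 and −0.25 with normexp. Dsc2, a desmocollin gene, had effects of 0.17 and −0.08.

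Among the plaque genes, Evpl was lower after challenge by a similar amount in both genotypes. Envoplakin, its product, links desmosomes to keratin and forms part of the cornified envelope of skin. Evpl read 12934 and 15754 in challenged cells labelled Pla2g3-/- and wild type, and 17742 and 22645 in control cells labelled Pla2g3-/- and wild type. Both challenged values lay below both control values, with effects of −0.46 and −0.52, past 2 scanner errors in both, and the probe lies on chromosome 11 from 116081921 to 116081980 (mm9). Ppl, which encodes periplakin, the partner of envoplakin, read 8100 and 7643 against 6703 and 9498 in the same order. Its effects were 0.27 and −0.31, and the wild-type control array was the highest. Pkp1, a plakophilin gene of stratified epithelium, was 0.40 and 0.28 lower after challenge on the log2 scale, and Pkp3, a plakophilin gene of most epithelia, was 0.28 and 0.33 higher. Pkp2 had effects of 0.17 and −0.23 and Jup (plakoglobin) of −0.16 and −0.31. Dsp, which encodes desmoplakin, the main keratin linker, had effects of −0.06 and −0.38 with the brighter probe and of 0.21 and −0.81 with a dimmer one.

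Dsg1c was the 1 member at least 2-fold different after challenge in opposite directions in the 2 genotypes. It is 1 of the 3 mouse copies of the desmoglein-1 gene of stratified epithelium, and near-identical copies can share signal. Its scaled intensity was 20.2 in challenged cells labelled Pla2g3-/- and 116 in challenged wild-type cells, and 72.7 in control cells labelled Pla2g3-/- and 46.4 in control wild-type cells. The challenge effect was −1.85 (3.61-fold lower, scanner error 0.27) in cells labelled Pla2g3-/- and 1.33 (2.51-fold higher, 0.21) in wild type. The difference between these effects was −3.18 (scanner error 0.34), the only member of 33 with a 2-fold difference of challenge effects, where 2.83% of all genes were higher and 2.71% lower. The signal was dim, and with normexp the effects were −0.88 and 0.89 and the difference −1.77. Other genes of stratified or thymic epithelium did not share 1 pattern over the arrays. The desmoglein gene Dsg4 read 2.95 and 53.9 in challenged cells labelled Pla2g3-/- and wild type, and 3.14 and 2.54 in control cells labelled Pla2g3-/- and wild type, above background only on the challenged wild-type array. The desmocollin gene Dsc1 read 2.97 and 29.6 against 2.60 and 17.1 in the same order, above background on the 2 wild-type arrays. Foxn1, a transcription factor of thymic epithelium and hair follicles, read 9.95 and 42.3 against 47.1 and 11.7, above background on all arrays but the first. Psmb11, a proteasome gene of thymic epithelium, read 48.5 and 2.15 against 41.7 and 32.1, not above background on the challenged wild-type array. The keratin gene Krt6a read 156 and 77.6 against 42.2 and 61.6. The 7 squamous markers were above background on every array and summed to 4.60 and 5.06 against 5.08 and 5.30 times the 75th percentile. Krt13 was the brightest of them, at 5861 and 7220 against 6995 and 7328. By gene, 3 of the 7 were at least 2-fold higher after challenge in cells labelled Pla2g3-/- and 0 in wild type. Over all genes 3.88% and 1.79% were, and the medians of the 7 were 0.76 and 0.31. The 5 thymic epithelial markers, of which 4, 4, 5 and 5 were above background, summed to 0.65 and 0.65 against 1.05 and 0.58. The part of these squamous and thymic genes in the Dsg1c values was not tested.

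Under challenge, 0 members were at least 2-fold higher and 1 (Dsg1c) at least 2-fold lower of 37 measured in cells labelled Pla2g3-/- than in wild-type cells, where 3.87% and 2.46% of all genes were. Without challenge 1 was higher (Cldn1, a bound) and 0 lower of 35, beside 3.25% and 1.8% of all genes. The medians were −0.00 under challenge and −0.09 without, beside −0.05 and −0.03 over all genes, and 33 of 37 (89.2%) and 32 of 35 (91.4%) members were within 0.5 of 0, beside 81.4% and 84.3% of all genes. Dsg1c was 2.53 lower (5.77-fold, scanner error 0.26) in challenged cells labelled Pla2g3-/- than in challenged wild-type cells, and 0.65 higher in control cells. Cldn1 was 0.54 higher under challenge, and at least 2.14-fold higher without challenge. Dsc3, a desmocollin gene of basal cells, read 55.8 in challenged cells labelled Pla2g3-/- and 33.7 in challenged wild-type cells, and 51.6 in control cells labelled Pla2g3-/- and 45.5 in control wild-type cells. That is 0.73 higher under challenge (1.66-fold, scanner error 0.23) and 0.18 without. A dimmer second Dsc3 probe was well above background only on the challenged array labelled Pla2g3-/-, at 22.5 intensity units. It gave a bound of 1.36 for genotype under challenge. For challenge in cells labelled Pla2g3-/- it gave a bound of 1.24, where the brighter probe gave 0.11. Cldn8 was 0.45 lower under challenge and Ppl 0.50 lower without challenge on the log2 scale.

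Signs of these small genotype differences depend on the scaling. Of the measured members, 18 of 37 under challenge and 9 of 35 without were above 0, but with arrays centred on the median of 20 epithelial identity genes 31 of 35 and 25 of 35 were. That centring moved the median of all genes by 0.29 and 0.17 in these comparisons. Under it the Dsg1c value in challenged cells was −2.24, Cldn1 was 0.82 and 1.27, and Dsc3 1.01.

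**Figure D4:**
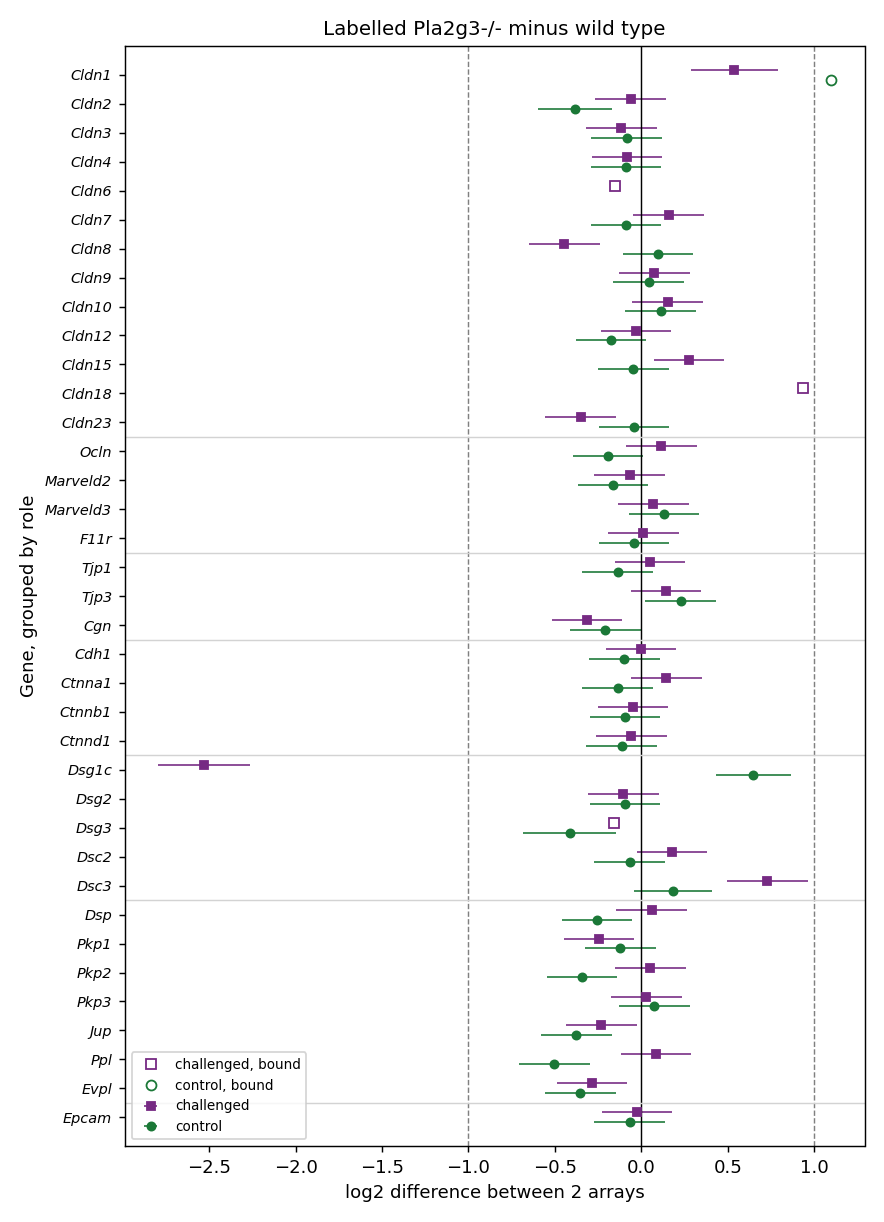
Genotype effect of each junction gene under challenge (squares) and without challenge (circles), as the log2 difference between the array labelled Pla2g3-/- and the wild-type array with bars of 1 scanner error, and open symbols for bounds. Dashed lines mark a 2-fold difference, and most points lie within 0.5 of 0, while Dsg1c under challenge lies at −2.53.

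The only test that the 4 arrays allow is an additive fit of challenge and genotype over all of them with limma, with 1 residual degree of freedom, which takes any difference between the 2 challenge effects as error. None of 33 members passed an adjusted p of 0.05 for either effect in limma with Benjamini-Hochberg adjustment, beside 0.0232% and 0.0371% of the 21576 genes for challenge and genotype. At an unadjusted p under 0.05, 10 members had a challenge effect (6 higher and 4 lower) and 2 a genotype effect, beside 15.8% and 12.4% of all genes. The smallest was Cldn2, with an average challenge effect of 1.55 ± 0.18 (SE; limma adjusted p = 0.140). Cldn15 had 0.99 ± 0.15 (limma adjusted p = 0.164), Evpl −0.49 ± 0.09 (limma adjusted p = 0.183), Tjp3 0.46 ± 0.09 (limma adjusted p = 0.196) and Dsg2 −0.47 ± 0.10 (limma adjusted p = 0.217). The other 5 were Pkp1, Pkp3, Cldn8, Cldn7 and Cdh1, with limma adjusted p from 0.241 to 0.313. For genotype they were Evpl, at −0.32 ± 0.09, and Cgn, at −0.26 ± 0.09 (limma adjusted p = 0.271 and 0.355).

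In 11 of the 33 members measured on all arrays both challenged arrays lay above both control arrays, and in 7 they lay below, where 18.5% and 26.3% of all genes did. The split moves with the scaling, since with arrays centred on the median of all probes it was 13 and 6 of the members beside 25.3% and 19.3% of all genes, and with the epithelial centring 8 and 10 beside 11.1% and 20.2%. The 11 were Cldn2, Cldn7, Cldn9, Cldn10, Cldn15, F11r, Tjp3, Cdh1, Ctnnb1, Ctnnd1 and Pkp3, and the 7 were Cldn3, Cldn8, Cldn12, Dsg2, Dsp, Pkp1 and Evpl. For genotype, both arrays labelled Pla2g3-/- lay above both wild-type arrays in 2 members (Marveld3, whose second probe gave −0.01 and −0.21 under and without challenge, and Dsc3) and below in 6 (Cldn4, Cldn23, Marveld2, Cgn, Jup and Epcam), beside 11.9% and 22.7% of all genes.

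Other genes of the same structures were mostly level too. None of 18 further tight junction genes and none of 13 apical polarity genes measured was 2-fold different after challenge in either genotype, and their medians lay between −0.06 and 0.02. The 13 nectins and other adherens junction genes and the 10 hemidesmosome genes, which anchor cells to the basement membrane, also gave 0, with the anchoring gene Dst at −0.64 in cells labelled Pla2g3-/- and −0.55 in wild type. Of 9 further claudins measured, 1 was higher and 0 lower in cells labelled Pla2g3-/- (Cldn5, the endothelial claudin, 1.26) and 0 higher and 1 lower in wild type (Cldn11, −1.08). Cldn5 read 246 and 337 in challenged cells labelled Pla2g3-/- and wild type, and 103 and 278 in control cells labelled Pla2g3-/- and wild type, so the control array labelled Pla2g3-/- stood low. Among the connexins, the channels of gap junctions, Gja1 was 1.69 higher and Gjb6 had an effect of −1.36 in cells labelled Pla2g3-/-, and in wild type Gjb5 had 1.16 and Gjc1 −1.47. Of the other desmosome and cornified envelope genes, 3 of 8 measured were higher in cells labelled Pla2g3-/- (Sprr2a1 with a bound of 2.03, Sprr1a 1.71 and the basal keratin gene Krt14 1.43) and 1 of 9 in wild type (Dsg4, a bound of 2.54). Krt14 itself read 1198 and 1028 in challenged cells labelled Pla2g3-/- and wild type, and 446 and 543 in control cells labelled Pla2g3-/- and wild type. Among 20 epithelial identity genes none was past 2-fold in either genotype, with medians of 0.05 and 0.06, and the membrane protease gene St14 (matriptase) came nearest with 1.00 and 0.78. A list of 9 mesenchymal transition genes held factors that can repress junction genes (Snai1, Snai2, Zeb1, Zeb2, Twist1 and Twist2) and the mesenchymal products Cdh2, Vim and Fn1. Of these, 1 of 8 measured was 2-fold lower after challenge in cells labelled Pla2g3-/- (Zeb1, −1.12) and 0 of 9 in wild type. Snai1 was 1.74 higher in challenged cells labelled Pla2g3-/- than in challenged wild-type cells, at 42.0 and 12.6. The brighter Snai2 had a difference of −0.80 between the same arrays, at 1367 and 2374. Of the 8 genes of this list measured there, 6 were above 0 and 2 below, with Cdh2, Vim and Fn1 among the 6. Cdh1 differed by −0.00 between these arrays, and a link to the genes of this list was not tested.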

How the data were processed

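RNA from bronchial epithelial cells, pooled from 4 samples per group, was hybridised to 4 single-colour arrays, 1 per group, after 200 ng was labelled with Cy3, per the labels. The deposited scanner files hold spot intensity as written by version 11.5.1.1 of Agilent Feature Extraction, per the file headers and the submitters' processing notes, with background removed by spatial and multiplicative detrending and probes placed on mm9. The authors' deposited value table, also intensity, was proportional to the processed signal over the array's 75th percentile for all 44397 features, with a ratio between 0.9995 and 0.9999 (column medians 0.0850, 0.0860, 0.0879 and 0.0875), so its scale, centring and direction are known. All 4 were on 1 slide, scanned on 1 day, and position on the slide cannot be told apart from group.

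Control spots were dropped, leaving 43020 per array, and the log2 processed signal was set relative to its 75th percentile among them. Spots marked as outliers (128 to 155 per array) were left out, 0 spots were saturated, and spots of 1 probe were averaged. Of 39429 probes, 3404 had no gene name, 19 had a missing value, and 28330 took their symbol from RefSeq. Each gene was represented by its brightest probe. Where only 1 array of a pair read a gene well above background, the difference is a bound, taken from the brighter value to the dim array's lowest signal counted as detected or to the dim probe itself if that was higher. Of 399 probes printed 10 times, 333 to 345 per array were well above background, with a median SD between spots of 0.07. The number of arrays limits the precision.

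Effects were differences between 2 arrays, counted at 2-fold. An additive limma fit (version 3.58.1, R 4.3.3, trend on the mean, Benjamini-Hochberg over 21576 genes) was the only test, and was tested on simulated data. The junction genes and all lists were chosen with earlier results of these data known. Genes named were Pla2g3, every junction gene, and, for each effect, up to 4 genes of each other list with the largest difference. Outside that rule, Rsph1 was named as the ciliated marker that differed least between genotypes, and Krt13 as the brightest squamous marker. Dsg1a and Dsg1b were named as copies of desmoglein-1, and mesenchymal transition genes to show what their list held. Alternatives were normexp with an offset of 50, quantile normalization, centring on the median or on epithelial identity genes, the mean of all probes, no floor, only probes above background on all arrays, the authors' values, the other genotype's control array, and limma without trend.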

Additional observations from a re-analysis of the deposited data

Results flagged for a closer look

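Dsg1c differed between genotypes in the direction of its challenge effect. The effect was −1.85 in cells labelled Pla2g3-/- and 1.33 in wild type, a difference of −3.18 (log2). With 1 array per group the difference was not tested.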

How the results depend on the processing

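No paired analysis was possible because each group has 1 array and no replicate number. The number of members at least 2-fold higher or lower, their medians and the additive fit were recomputed under the alternatives: 115 values stayed close, 23 moved and 0 reversed. In the additive limma fit 0 members passed the adjusted threshold under any alternative, and the smallest adjusted p was 0.052 (Cldn2 for challenge, with epithelial centring). Counts run from 0 to 3, so 1 dim gene near the 2-fold line moves them. After challenge in cells labelled Pla2g3-/-, the number higher was 1 with normexp, and the number lower was 0 with normexp and 1 with quantile normalization, median centring, epithelial centring, the mean of probes and only probes above background on all arrays. After challenge in wild type, the number higher was 0 with normexp and 1 with the other genotype's control array, and the number lower was 0 with normexp, the mean of probes, only probes above background on all arrays and the other control array. Under challenge, the number higher in cells labelled Pla2g3-/- than in wild type was 2 with epithelial centring and 1 with quantile normalization, the mean of probes and no floor, and the median was 0.30 with epithelial centring. Without challenge, the number higher was 0 with normexp and with only probes above background on all arrays, and the number lower 1 with no floor. The number with a higher challenge effect in cells labelled Pla2g3-/- was 1 with the mean of probes and with no floor. The cause was not tested, except that only probes above background removes Cldn1 and Dsg3 by construction.

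For the genes followed singly (Cldn1, Cldn2, Cldn15, Dsg1c and Dsg3), 78 values stayed close, 22 moved and 0 reversed. Cldn2 was 1.11 in cells labelled Pla2g3-/- and 1.00 in wild type with normexp, and 1.33 and 1.77 against the other genotype's control array. Cldn1 was 2.25 and 0.62, and Dsg1c −1.20 and 0.68, against that array. Dsg3 was −0.22 and −0.81 with the mean of probes. Epithelial centring moved the median of all genes by 0.12 for the difference of challenge effects, and with it 29 of 33 members were above 0, beside 23 at the 75th percentile. With that centring 7 members, all higher in cells labelled Pla2g3-/-, had an unadjusted limma p under 0.05 for genotype. The scalings of the array order and of the signs were chosen after seeing the data. Dim probes limit Cldn1, Cldn6, Cldn18, Dsg1c and Dsg3, which lie near background.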
